A study of Mus musculus with 6 samples.

Results

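Mucin-type and sialyl glycosyltransferases are the Golgi enzymes that build the sugar chains of mucus and of the cell surface. The set described here holds 65 of the 23550 gene symbols in the expression table. Members were chosen by symbol: every numbered gene of the Galnt, Galntl, B3gnt, B3galt, B4galt, Gcnt, Fut, St3gal, St6gal and St6galnac families, together with C1galt1 and C1galt1c1, and with B3galt5 and Fut2 left out. RNA was from mouse stomach, with 3 libraries from mice given Riclin by gavage at 20 mg/kg for 14 d and 3 libraries from mice given saline by gavage for the same time. The treatment label of the saline libraries carries the figure of 20 mg/kg as well, although saline has no such dose. Riclin is a polysaccharide secreted by a bacterium, and the study asked how it acts on the mucosal defence barrier of the stomach. The Riclin libraries carry the replicate numbers 2, 3 and 4, and the saline libraries 1, 2 and 4. The experiment held 20 mice, whose strain and age were not given in the sources used here, and neither was whether the mice behind these libraries also received the ethanol used elsewhere in the study. Separate animals are not stated for the libraries. All p-values therefore measure the spread between libraries, which may be technical.

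Mucins are proteins whose serine- and threonine-rich stretches carry dense O-linked sugar chains. A polypeptide GalNAc-transferase attaches the first N-acetylgalactosamine, and the chain is then given a core, a branch and an extension, and is closed by galactose, fucose, sulfate or sialic acid. In the stomach such chains hold the water of the mucus gel and carry the blood-group and Lewis structures to which microbes bind. Not every member works on mucins. Fut8 and St6gal1 act mainly on N-linked chains, B4galt5, B4galt6, St3gal5 and B3galt4 on glycolipids, and B4galt7 and B3galt6 on the linker of proteoglycans.

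Levels are given as FPKM, fragments scaled to gene length and library size, which can be compared between genes. The values imply library totals of 37253728 to 40050267 reads in Riclin and 30884067 to 38872411 in saline. In 3 or more of the 6 libraries 45 members reached an FPKM of 1, and 40 of them did so in all 6. The other 20 members stayed below. Reads behind the 45 members ranged from 52 for B3gnt8 to 15450 for Gcnt3 in a single library. Libraries differed in tissue content. Of 19 listed transcripts of the pancreatic acinar cell, 18 were in the table, and they took 10.4%, 0.0153% and 9.79% of reads in Riclin replicates 2, 3 and 4, against 3.71%, 15.1% and 14.3% in saline replicates 1, 2 and 4. In Riclin replicate 3, 5 of these 18 genes were at 0. The 2 transcripts of the antrum, Gast and Pdx1, summed to 424, 393 and 4.55 FPKM in Riclin and 1043, 683 and 951 FPKM in saline. Summed levels of the 8 pit cell transcripts were 58900 to 84370 FPKM in Riclin and 62800 to 106800 FPKM in saline, and those of the 4 chief cell transcripts 60560 to 81980 FPKM in Riclin and 33810 to 64030 FPKM in saline. The 6 parietal cell transcripts summed to 4207 to 5657 FPKM in Riclin and 3155 to 4641 FPKM in saline, so the defining cells of the stomach were present throughout. Transcripts of the squamous forestomach (11 genes) summed to 425, 434 and 328 FPKM in Riclin and 86.8, 359 and 252 FPKM in saline, and all 8 that were tested lay above 0 in log2 fold change, 5 of them at an unadjusted p under 0.05 by limma. All 6 parietal and all 4 chief cell transcripts also lay above 0, with 2 and 1 at that level. All 8 pit cell and all 18 acinar transcripts lay below 0, with 1 and 0 at that level. So did all 4 tested lymphoid, the 2 antral and all 6 smooth muscle transcripts, with 3, 1 and 0 at that level. Of 7 tested intestinal transcripts 6 lay below 0, with 4 lower at that level. Of 4 tested neck and gland mucous transcripts 3 lay below 0, with 1 lower at that level. Over all tested genes 61.3% lay above 0, and 4.07% were higher and 1.83% lower at that level. Neck and gland mucous transcripts (5 genes) summed to 3541, 6200 and 2322 FPKM in Riclin and 5141, 6110 and 13480 FPKM in saline. Intestinal transcripts (11 genes) summed to 3462, 404 and 2970 FPKM in Riclin and 1923, 5233 and 5204 FPKM in saline. Except in Riclin replicate 3, most of each sum was Zg16 alone, at 3198, 40.2 and 2716 FPKM in Riclin and 1232, 4677 and 4410 FPKM in saline. In Riclin replicate 3, Clca1 (115 FPKM), Apoa4 (101 FPKM) and Rbp2 (75.1 FPKM) were each higher than Zg16. The order of the libraries in Zg16 was the order of their acinar reads, so the sums cannot be read as intestinal content. Gkn3 of the neck list, Rbp2, Fcgbp, Clca1 and Cdx2 of the intestinal list and Krt20 of the pit list were lower in every Riclin library than in any saline library. The same held for Gast, Pdx1, for Cd3e, Cd3g and Jchain of the lymphoid list, and for Acta2 and Myh11 of smooth muscle. Apoa4 of the intestinal list had the higher mean in Riclin, 83.2 FPKM against 67.2 FPKM in saline, with overlap. Higher in every Riclin library were Kcnq1, Slc26a7 and Aqp4 of the parietal list, Cblif of the chief list and Krt14, Krt6a and Krt17 of the squamous list. Over all tested genes 8.14% were apart with Riclin higher and 3.02% with Riclin lower. These shares do not cover Cdx2 and Cd3e, which were below the limit for testing. Saline replicate 4 stood apart in the enterocyte gene Alpi, at 0.494, 2.0 and 0.146 FPKM in Riclin and 1.84, 1.72 and 41.95 FPKM in saline, and Cdx1 and Sis were at 0 in all other libraries. The part of these tissues in the members' values was not tested.

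Gcnt3 or B3gnt3 was the highest member in every library, and 10 members averaged at least 20 FPKM over the 6 libraries: in descending order Gcnt3, B3gnt3, Galnt2, B4galt1, Galnt4, Galnt12, C1galt1c1, C1galt1, Galnt1 and St6galnac2. Initiating enzymes made up 34.1 ± 1.41% of the summed FPKM of all members in Riclin and 34.6 ± 1.41% in saline (SD, n = 3 each), α2,3-sialyltransferases 5.64% in Riclin and 5.02% in saline, and α2,6-sialyltransferases 4.95% in Riclin and 5.05% in saline. By limma on log2(FPKM + 1), 0 of the 45 tested members and 0 of 11738 tested genes (0%) had a Benjamini-Hochberg adjusted p under 0.05. The unadjusted p was under 0.05 for 693 genes in all (5.9%), and voom on the recovered reads called 0 genes after adjustment. Of the members, 2 were higher in Riclin at that unadjusted level, where the share of all tested genes was 4.07%, and 1 was lower, where it was 1.83%. Without saline replicate 4 the counts were 1 higher (B4galt5) and 1 lower (Galnt11). Without both libraries lowest in acinar reads they were 1 (B3gnt3) and 4 (B3gnt7, B3gnt8, B4galt4 and Fut8), none of them among the 3 members of the full comparison.

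**Figure D1:**
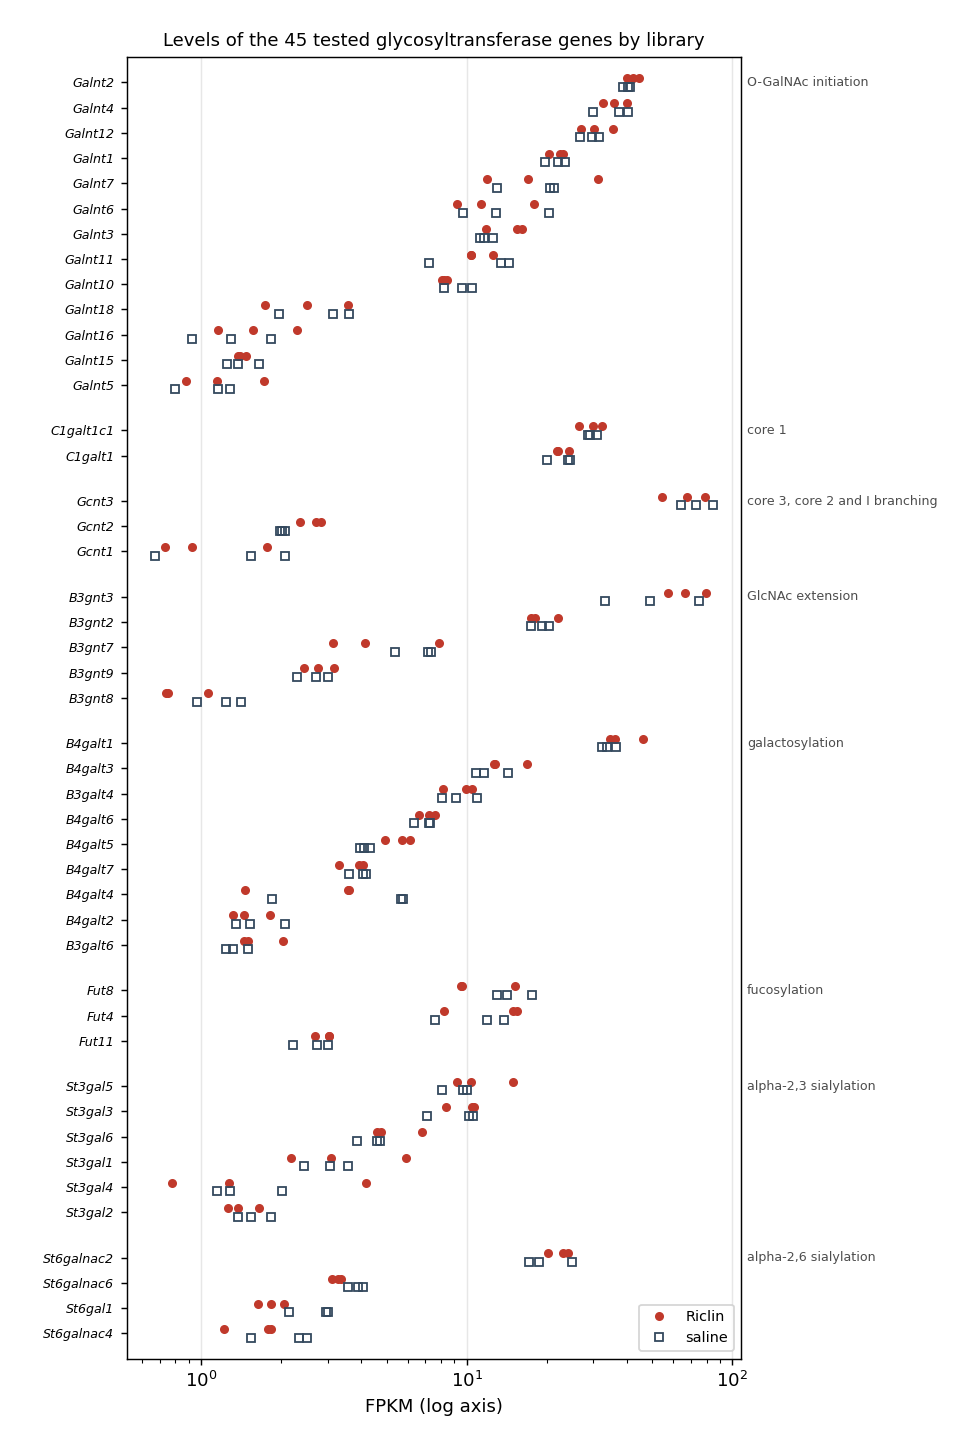
FPKM on a log axis for the 45 tested members, grouped by enzyme class, with filled circles for the 3 Riclin libraries and open squares for the 3 saline libraries. Gcnt3 and B3gnt3 sit farthest right, and in all but 4 members the circles and squares overlap.

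The size of the difference was small for the set as a whole. The median log2 fold change (Riclin minus saline) over the 45 members was 0.02, beside 0.04 over all tested genes, and 26 members lay above 0, or 57.8%, where 61.3% of all tested genes did. With median-of-ratios scaling 21 members (46.7%) and 49.8% of all genes lay above 0, and with upper-quartile scaling 22 members (48.9%) and 52.8%. A log2 fold change beyond 0.5 in either direction was seen in 0 members and in 4.26% of all tested genes. For 41 of the 45 members the 95% interval lay within 1 log2 unit of 0 in both directions. The exceptions were B3gnt3, B3gnt7, B4galt4 and St3gal4. Within 0.5 log2 units of 0 lay the intervals of 22 members, so for the rest a difference of that size is not excluded. The log2(FPKM + 1) scale understates differences of members with low levels.

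**Figure D2:**
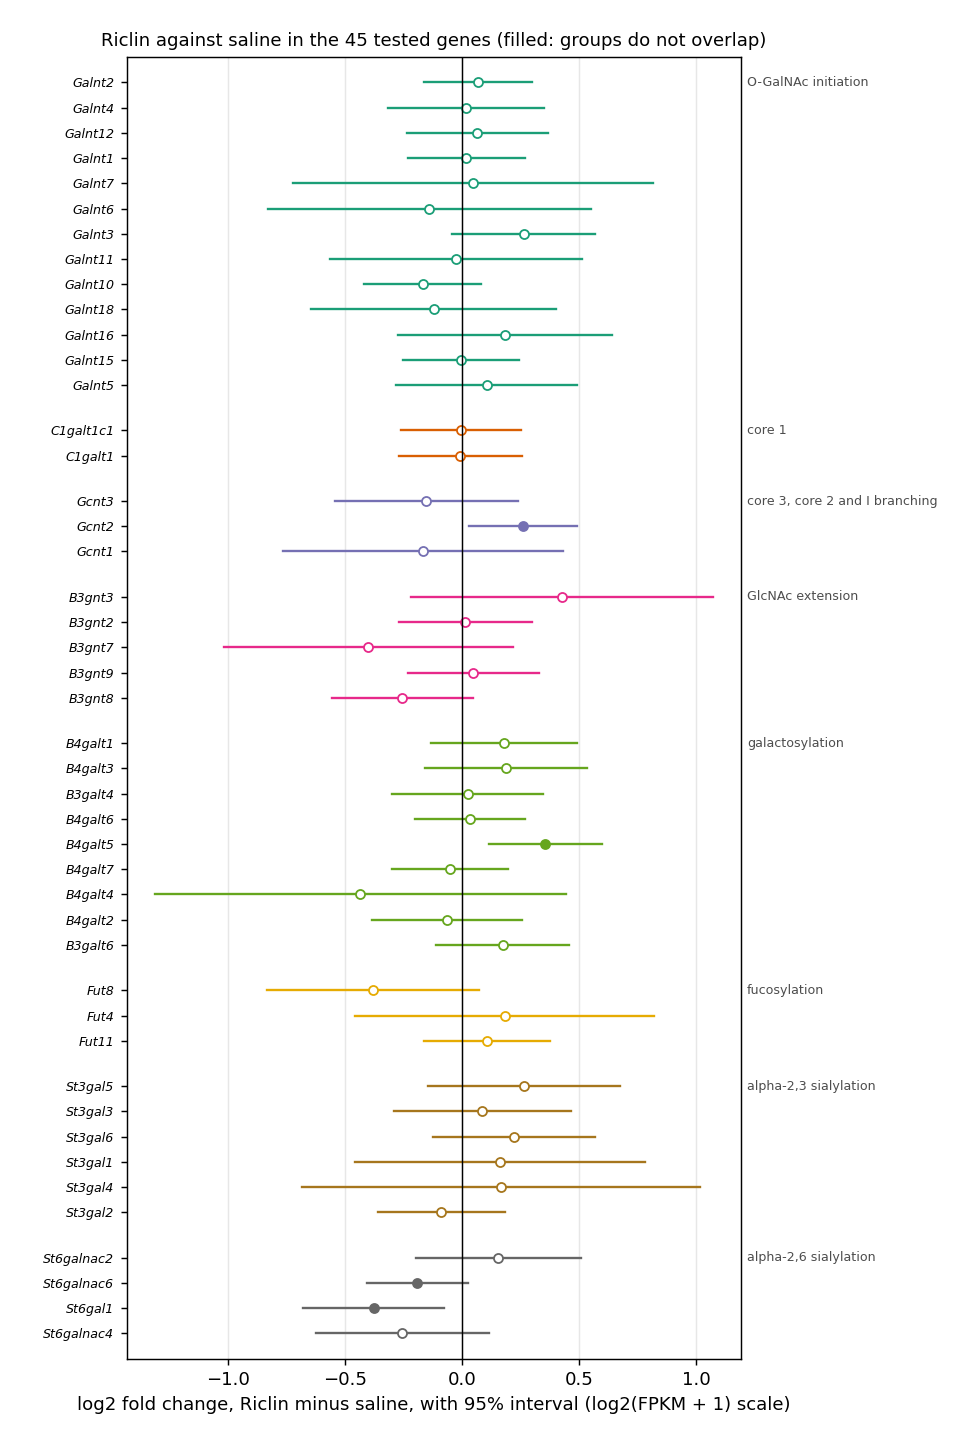
Log2 fold change of each tested member (Riclin minus saline, points) with its 95% interval (lines), on the log2(FPKM + 1) scale. Filled points mark B4galt5, Gcnt2, St6gal1 and St6galnac6, whose groups do not overlap, and every point lies between -0.44 and 0.43.

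Initiation was led by Galnt2, a broadly expressed GalNAc-transferase, and it was the steadiest of the tested members, with a ratio of highest to lowest library of 1.14. It measured 40.1, 42.3 and 44.4 FPKM in Riclin, against 41.3, 40.6 and 38.8 FPKM in saline, with a log2 fold change of 0.07 (95% interval -0.16 to 0.30). These ranges overlap. In the annotation 93.7% of its exon bases are shared with Gm20388 on the same strand, so its reads may be divided between both. Galnt4, which prefers peptides that already carry a sugar, averaged 36.1 ± 3.73 FPKM in Riclin and 35.9 ± 5.45 FPKM in saline. Galnt12, prominent in the digestive tract, averaged 30.9 ± 4.29 FPKM in Riclin and 29.3 ± 2.45 FPKM in saline. Both stood at nearly the same level in the 2 groups.

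Galnt3, known in bone for protecting FGF23 from cleavage, measured 11.8, 15.5 and 16.1 FPKM in Riclin, against 11.2, 11.7 and 12.5 FPKM in saline. Only Riclin replicate 2 lay within the saline range, and the log2 fold change was 0.26 (SE 0.132, limma adjusted p = 0.824). Galnt10 measured 8.21, 8.47 and 8.10 FPKM in Riclin, against 10.5, 8.25 and 9.58 FPKM in saline. Saline replicate 2 lay among the Riclin values, and the log2 fold change was -0.17 (SE 0.107, limma adjusted p = 0.851), at -0.10 without saline replicate 1. Galnt7, like Galnt10 an enzyme that follows up on glycosylated peptides, varied more than either, at 17, 31.1 and 11.9 FPKM in Riclin and 21.4, 13 and 20.7 FPKM in saline. Both its highest and its lowest value came from Riclin libraries. Of the 18 initiation genes 13 were tested, 8 above 0 and 5 below, with a median log2 fold change of 0.02.

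Core 1, the Gal-GalNAc unit on which most gastric O-glycans are built, depends on the galactosyltransferase C1galt1 and on its chaperone C1galt1c1, also called Cosmc, without which the enzyme is degraded. C1galt1 measured 24.2, 21.9 and 22.0 FPKM in Riclin, against 24.5, 20.0 and 24.1 FPKM in saline. C1galt1c1 measured 30, 32.3 and 26.5 FPKM in Riclin, against 31.1, 29.2 and 28.6 FPKM in saline. For the enzyme the log2 fold change was -0.01 (95% interval -0.27 to 0.26) and for the chaperone -0.01 (95% interval -0.26 to 0.25), so both intervals exclude a difference as large as 0.3 on this scale. The signs of both depend on which library is left out. On GRCm38 C1galt1 lies on chromosome 6 from 7844842 to 7875687 on the plus strand and C1galt1c1 on chromosome X from 38630785 to 38635087 on the minus strand.

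Branching was nearly all Gcnt3, the mucin-type enzyme that makes core 2, core 4 and I branches and is typical of mucus-secreting epithelia. It was the highest member of the whole set, at 67.3, 78.6 and 54.5 FPKM in Riclin and 84.6, 64.3 and 73.0 FPKM in saline, and the groups overlapped (log2 fold change -0.15, 95% interval -0.54 to 0.24). That value was -0.28 without Riclin replicate 3 and -0.02 without Riclin replicate 4. B3gnt3, next in order, averaged 67.7 ± 11.3 FPKM in Riclin and 52.4 ± 21.1 FPKM in saline, so the levels of the leading pair did not differ beyond their spread. B3gnt6, the core 3 synthase of the colon and the step that core 4 needs, had 2, 0 and 1 reads in Riclin and 0, 17 and 11 reads in saline.

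Gcnt2, which makes the I branches of poly-N-acetyllactosamine, was one of the members whose groups did not overlap. It measured 2.82, 2.72 and 2.35 FPKM in Riclin, against 2.08, 2.02 and 1.99 FPKM in saline. Every Riclin library lay above every saline library, and the means were 2.63 ± 0.246 FPKM in Riclin and 2.03 ± 0.0449 FPKM in saline, 1.3-fold higher in Riclin. The log2 fold change was 0.26 (SE 0.0985, 95% interval 0.03 to 0.49), with an unadjusted p of 0.0305 and a limma adjusted p of 0.791. Over 15 alternatives the log2 fold change was 0.22 to 0.37, the unadjusted p 0.0191 to 0.165 and the limma adjusted p 0.619 to 0.964. Gcnt2 lies on chromosome 13 from 40859754 to 40960892 on the plus strand, and 7.0% of its exon bases are overlapped by A730081D07Rik on the opposite strand. Whether counting used strand was not given in the sources used here.

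In all, 4 members had groups that did not overlap, 2 higher in Riclin, where the share of all tested genes was 8.14%, and 2 lower, where it was 3.02%. In either direction this was 8.89% of the tested members, beside 11.2% of all tested genes.

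Extension adds N-acetylglucosamine to galactose and so lengthens the chain. B3gnt3, which extends core 1, led the class and was among the members with the widest spread, at 66.5, 79.5 and 57.1 FPKM in Riclin and 75.1, 49.0 and 33.2 FPKM in saline. Saline replicate 1 lay with the Riclin libraries and the other two lay below them all. The log2 fold change was 0.43 (SE 0.277, limma adjusted p = 0.851), at 0.72 without saline replicate 1 and 0.14 without saline replicate 4. B3gnt2, the main maker of poly-N-acetyllactosamine, averaged 19.3 ± 2.52 FPKM in Riclin and 19.0 ± 1.51 FPKM in saline, although 73.6% of its exon bases are shared with Gm28048 on the same strand.

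B3gnt7, an enzyme of keratan sulfate chains, measured 4.16, 7.86 and 3.14 FPKM in Riclin, against 5.40, 7.32 and 7.16 FPKM in saline. Riclin replicate 3 was the highest of all libraries and the other two Riclin libraries were the lowest. Its log2 fold change was -0.40 (SE 0.265, limma adjusted p = 0.854), at -0.71 without Riclin replicate 3 and -0.16 without Riclin replicate 4. B3gnt8, which works in a complex with B3gnt2, stood near the lower limit, at 0.737, 1.07 and 0.75 FPKM in Riclin and 0.965, 1.25 and 1.42 FPKM in saline. Riclin replicate 3 overlapped with saline, and the log2 fold change was -0.25 (SE 0.130, limma adjusted p = 0.829), at -0.46 with a pseudocount of 0.1 and -0.48 with voom.

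Galactosylation was led by B4galt1, the main maker of N-acetyllactosamine, at 36.2, 34.8 and 46.3 FPKM in Riclin and 36.5, 33.6 and 32.4 FPKM in saline. Riclin replicate 4 stood above the rest, and the log2 fold change of 0.18 (SE 0.134, limma adjusted p = 0.880) was 0.05 without it. B4galt5, which makes lactosylceramide, the first branch point of most glycolipids, had the smallest p of all members. It measured 4.93, 5.69 and 6.13 FPKM in Riclin, against 4.12, 3.96 and 4.32 FPKM in saline.

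Every Riclin library lay above every saline library for B4galt5, with means of 5.58 ± 0.612 FPKM in Riclin and 4.13 ± 0.178 FPKM in saline (SD, n = 3 each), 1.35-fold higher in Riclin. The log2 fold change was 0.36 (SE 0.104, 95% interval 0.11 to 0.60), with an unadjusted p of 0.00961 and a limma adjusted p of 0.723. Over the 15 alternatives it was 0.30 to 0.43, with unadjusted p of 0.00725 to 0.063 and limma adjusted p of 0.557 to 0.964. B4galt5 lies on chromosome 2 from 167298444 to 167349183 on the minus strand. B4galt6, the other lactosylceramide synthase, averaged 7.13 ± 0.498 FPKM in Riclin and 6.94 ± 0.542 FPKM in saline, with a log2 fold change of 0.03. B3galt6, which adds a galactose of the proteoglycan linker, measured 1.45, 2.04 and 1.51 FPKM in Riclin and 1.51, 1.32 and 1.24 FPKM in saline, and these ranges overlap (log2 fold change 0.17, limma adjusted p = 0.864, and 0.08 without Riclin replicate 3).

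**Figure D3:**
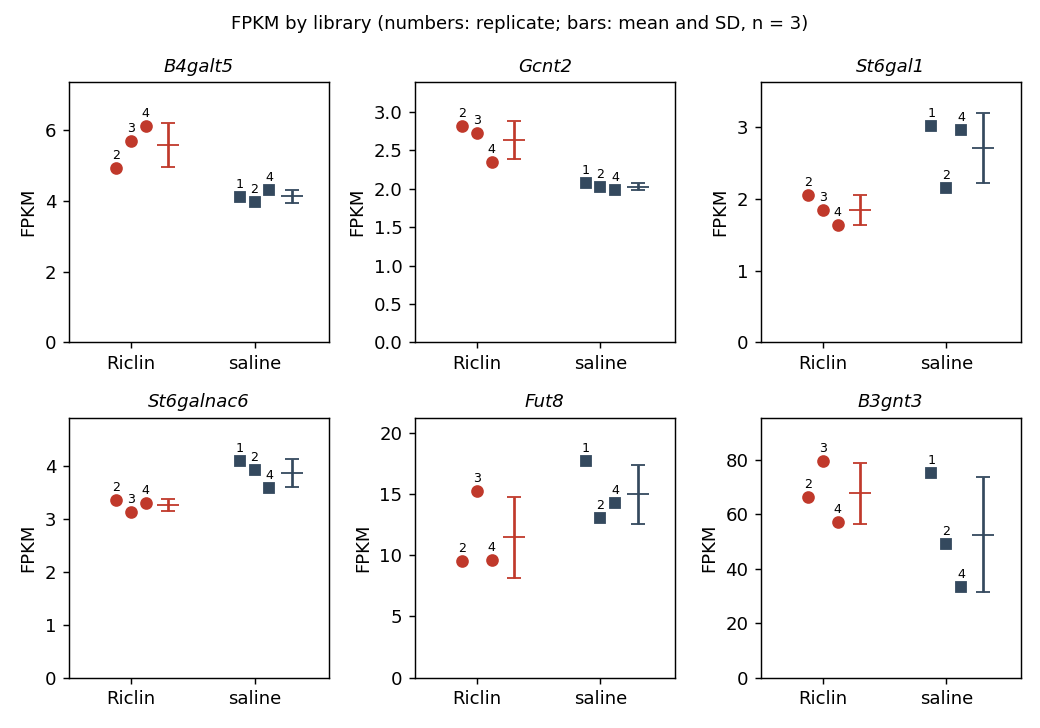
FPKM by library for the 4 members whose groups do not overlap (B4galt5, Gcnt2, St6gal1, St6galnac6) and for Fut8 and B3gnt3, with Riclin on the left of each panel and the replicate number beside each point. Bars show the mean and SD of 3 libraries; in Fut8, Riclin replicate 3 at 15.3 FPKM lies among the saline libraries.

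Among the members, fucosylation was led by Fut8, which adds the core fucose of N-glycans, and Fut4, which makes Lewis x type structures. Fut2, the α1,2-fucosyltransferase that is left out of the set, was higher than either, at 47.2, 54.5 and 56.5 FPKM in Riclin and 49.2, 45.95 and 45.9 FPKM in saline. Fut8 measured 9.52, 15.3 and 9.59 FPKM in Riclin, against 17.7, 13 and 14.2 FPKM in saline. The Riclin libraries apart from replicate 3 lay below all saline libraries, and the log2 fold change was -0.38 (SE 0.194, limma adjusted p = 0.829), at -0.59 without Riclin replicate 3. Fut4 measured 15, 15.5 and 8.19 FPKM in Riclin and 12, 7.60 and 13.8 FPKM in saline, with no order between the groups. Fut9, which also makes Lewis x and is known from brain and stomach, reached at most 1.10 FPKM.

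Of the α2,3-sialyltransferases all 6 were tested and 5 lay above 0, with a median log2 fold change of 0.16. St3gal5, which makes the ganglioside GM3, led them at 9.20, 15 and 10.4 FPKM in Riclin and 10.1, 9.73 and 8.06 FPKM in saline. Only Riclin replicate 3 stood clear of the saline range by a wide margin, and the log2 fold change of 0.26 (SE 0.176, limma adjusted p = 0.855) was 0.07 without it. St3gal6, which caps N-acetyllactosamine, was likewise highest in Riclin replicate 3, at 4.59, 6.78 and 4.75 FPKM in Riclin and 4.62, 3.88 and 4.74 FPKM in saline. Its log2 fold change was 0.22 (SE 0.149, limma adjusted p = 0.855), at 0.07 without that library, and 36.3% of its exon bases are overlapped by Dcbld2 on the opposite strand.

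St3gal1, which sialylates core 1, and St3gal4, which caps N-acetyllactosamine, were singled out after their values were seen. St3gal1 measured 3.10, 2.19 and 5.90 FPKM in Riclin and 3.06, 2.45 and 3.59 FPKM in saline. St3gal4 measured 1.27, 0.780 and 4.19 FPKM in Riclin and 1.29, 2.02 and 1.15 FPKM in saline, the widest ratio of highest to lowest library of any tested member, 5.37. Both were highest in Riclin replicate 4 and lowest in Riclin replicate 3. Riclin replicate 4 was also the library in which the antral transcripts Gast and Pdx1 summed to 4.55 FPKM, and the part of tissue region in these values was not tested.

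The α2,6-sialyltransferases were led by St6galnac2, which adds sialic acid to the GalNAc of O-glycans, at 20.3, 24.1 and 23.0 FPKM in Riclin and 25, 18.7 and 17.2 FPKM in saline, with overlapping groups. St6gal1, which caps N-linked N-acetyllactosamine and is high in liver and B cells, was low here. It measured 2.06, 1.84 and 1.64 FPKM in Riclin, against 3.02, 2.15 and 2.97 FPKM in saline. Every Riclin library lay below every saline library, although Riclin replicate 2 and saline replicate 2 were close.

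The mean level of St6gal1 was 1.85 ± 0.209 FPKM in Riclin and 2.71 ± 0.488 FPKM in saline, a ratio of 0.681. Its log2 fold change was -0.38 (SE 0.129, 95% interval -0.68 to -0.08), with an unadjusted p of 0.0202 and a limma adjusted p of 0.791, and over the 15 alternatives it was -0.54 to -0.31 with unadjusted p of 0.0041 to 0.155 and limma adjusted p of 0.383 to 0.964. St6gal1 lies on chromosome 16 from 23224740 to 23360350 on the plus strand. A list of 6 lymphoid markers summed to 12.5, 9.62 and 11.9 FPKM in Riclin and 33.4, 26.3 and 37.5 FPKM in saline, so that it too was lower in every Riclin library, with none of the 6 at 0. Of these, the B cell marker Cd79a measured 1.34, 2.24 and 0.551 FPKM in Riclin and 10.55, 1.36 and 10.05 FPKM in saline, with saline replicate 2 as low as the Riclin libraries. The part of lymphoid cells in the St6gal1 values was not tested. In whole stomach RNA, fewer cells of a type and less RNA per cell cannot be told apart.

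St6galnac6, which sialylates glycolipids, measured 3.36, 3.12 and 3.29 FPKM in Riclin, against 4.09, 3.91 and 3.58 FPKM in saline. The groups did not overlap, but the log2 fold change of -0.19 (SE 0.0932, 95% interval -0.41 to 0.03) had an unadjusted p of 0.0766 and a limma adjusted p of 0.823. St6galnac6 lies on chromosome 2 from 32599709 to 32620806, just downstream of St6galnac4 on the same strand, which runs from 32587095 to 32599698.

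Summed over each class, the levels overlapped between the groups in all 8 classes. Initiating enzymes summed to 206 ± 17.5 FPKM in Riclin and 201 ± 13.7 FPKM in saline (SD, n = 3 each). Branching enzymes summed to 70.9 ± 12.3 FPKM in Riclin and 77.8 ± 9.70 FPKM in saline, and extension enzymes to 95.9 ± 16 FPKM in Riclin and 82.3 ± 21.6 FPKM in saline. Core 1 genes summed to 52.3 ± 3.31 FPKM in Riclin and 52.5 ± 3.17 FPKM in saline, and fucosylation enzymes to 28.6 ± 5.99 FPKM in Riclin and 30.3 ± 5.16 FPKM in saline. In each of these classes libraries of both groups lay among each other. Galactosylation enzymes summed to 85.8 ± 4.74 FPKM in Riclin and 78.8 ± 4.16 FPKM in saline. α2,3-sialyltransferases summed to 34.0 ± 5.02 FPKM in Riclin and 29.1 ± 2.69 FPKM in saline, and α2,6-sialyltransferases to 29.7 ± 1.05 FPKM in Riclin and 29.4 ± 4.01 FPKM in saline.

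**Figure D4:**
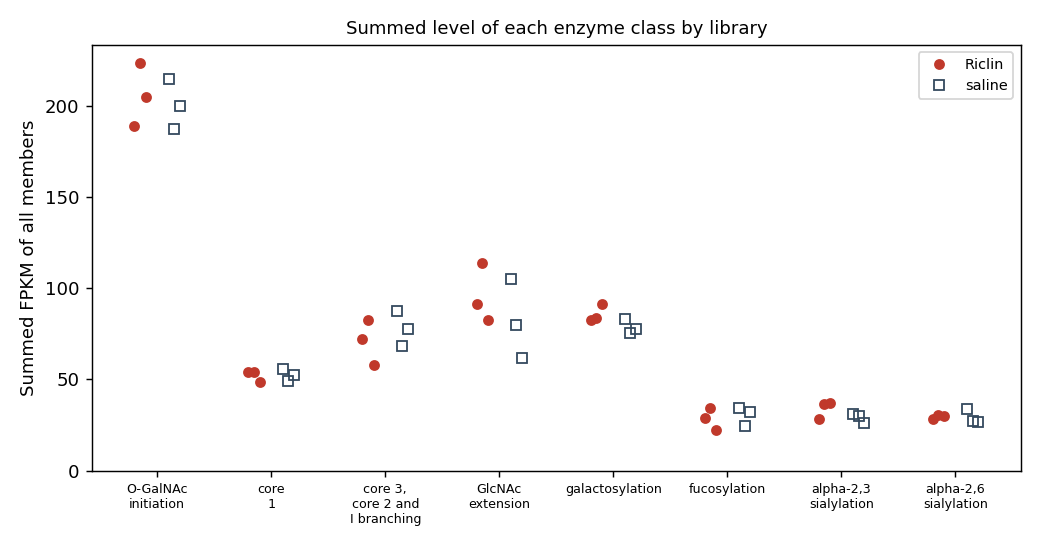
Summed FPKM of all members of each enzyme class, by library, with filled circles for Riclin and open squares for saline. Initiation is the largest class at 187 to 224 FPKM, and the points of the groups overlap in every class.

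Some members were lowest in the 2 libraries with the fewest acinar reads, Riclin replicate 3 and saline replicate 1. These were B4galt4, Gcnt1, Galnt16 and St6galnac4, a pattern of 8.89% of the tested members and 2.33% of all tested genes. These genes were singled out after their values were seen. B4galt4, a galactosyltransferase that also accepts sulfated N-acetylglucosamine, measured 3.58, 1.47 and 3.61 FPKM in Riclin and 1.85, 5.66 and 5.77 FPKM in saline. St6galnac4, which adds the sialic acid of disialyl core 1, measured 1.84, 1.23 and 1.78 FPKM in Riclin and 1.55, 2.5 and 2.34 FPKM in saline.

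The order of the 6 libraries in St6galnac4 was the order of their acinar reads. Gcnt1, the core 2 enzyme of leukocytes, measured 1.77, 0.735 and 0.928 FPKM in Riclin and 0.671, 1.54 and 2.08 FPKM in saline. Galnt16 measured 1.57, 1.16 and 2.30 FPKM in Riclin and 0.924, 1.83 and 1.3 FPKM in saline. Beyond its lowest libraries it did not follow the acinar reads, with its highest value in Riclin replicate 4. The log2 fold change of B4galt4 was -0.44 (SE 0.378, limma adjusted p = 0.887), at -0.85 without saline replicate 1 and -0.14 without Riclin replicate 3, and that of St6galnac4 was -0.25 (SE 0.160, limma adjusted p = 0.846), at -0.40 and -0.14. Without both libraries these values were -0.55 and -0.28. The part of acinar tissue in them was not tested.

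**Figure D5:**
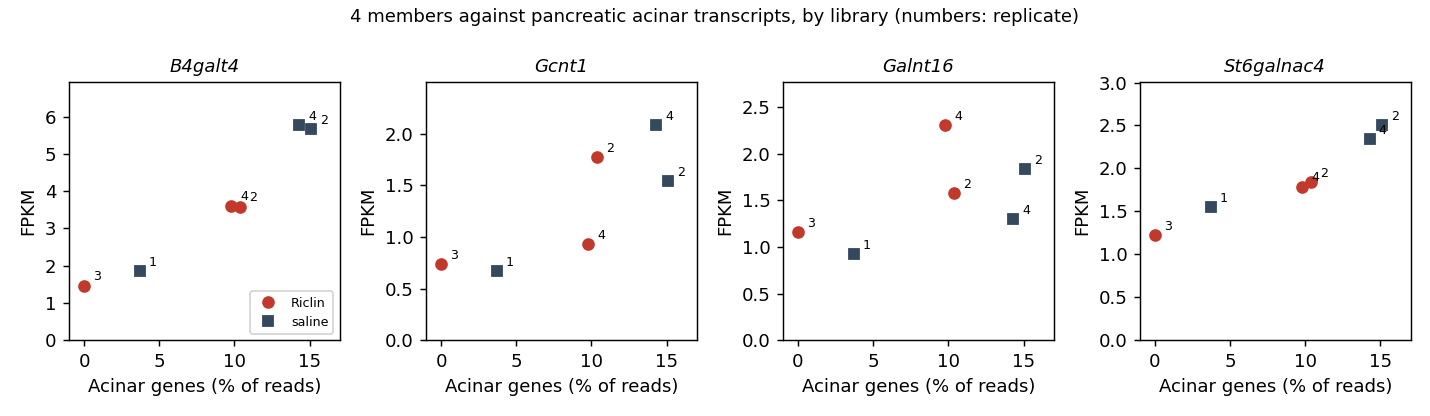
FPKM of B4galt4, Gcnt1, Galnt16 and St6galnac4 in each library against the share of reads from 18 pancreatic acinar genes, with replicate numbers beside the points. Riclin replicate 3 at 0.0153% and saline replicate 1 at 3.71% hold the lowest values in every panel.

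The promoters of B4galt4 and Gcnt1 are shown because this pair had the widest ratios of highest to lowest library of these genes, 3.93 and 3.10. The sequences are from RefSeq on GRCm38.p6, 250 bases before to 50 after the annotated start, printed 5′ to 3′ on the gene's strand, at chr16:38742009-38742308 (plus strand) and chr19:17372795-17373094 (minus strand, the most upstream of 3 Gcnt1 promoters). Capitals mark the motifs that the pancreatic complex PTF1 is known to bind together, an E-box (CANNTG) and a TC-box (TTTCCC), searched on both strands; the motifs can overlap only at an end.
B4galt4: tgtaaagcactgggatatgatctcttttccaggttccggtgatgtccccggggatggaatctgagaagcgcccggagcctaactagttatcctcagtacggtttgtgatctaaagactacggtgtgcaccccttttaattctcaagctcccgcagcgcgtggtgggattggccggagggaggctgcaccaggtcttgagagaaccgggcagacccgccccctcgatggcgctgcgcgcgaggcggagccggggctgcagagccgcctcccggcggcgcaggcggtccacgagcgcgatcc
Gcnt1: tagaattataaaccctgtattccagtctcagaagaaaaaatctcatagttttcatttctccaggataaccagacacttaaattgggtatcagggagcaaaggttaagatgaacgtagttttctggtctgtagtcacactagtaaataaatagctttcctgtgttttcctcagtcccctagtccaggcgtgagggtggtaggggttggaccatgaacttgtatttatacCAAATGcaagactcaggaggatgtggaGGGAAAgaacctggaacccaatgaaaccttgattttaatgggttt
The B4galt4 window held neither motif, and the Gcnt1 window held 1 E-box and, on the reverse strand, 1 TC-box. The other 2 Gcnt1 promoters held 2 E-boxes and 0 TC-boxes each. The St6galnac4 promoter held neither motif, and the 3 Galnt16 promoters held 1, 0 and 0 E-boxes and 0 TC-boxes each. Of 32851 RefSeq promoters of that length 72.3% held the E-box, 25.2% the TC-box and 18.0% both, so the letters are common and describe the window alone.

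The opposite pattern, with Riclin replicate 3 and saline replicate 1 as the highest libraries, held for 11 members, among them Gcnt3, B3gnt3, Galnt4, Galnt7, Galnt12, C1galt1c1 and Fut8. That was 24.4% of the tested members and 24.3% of all tested genes. The summed FPKM of all members was 575, 659 and 575 in Riclin and 646, 542 and 554 in saline. Once acinar genes were removed and the libraries rescaled, the sums were 588, 598 and 590 in Riclin and 603, 569 and 601 in saline. The means were then 592 ± 5.47 FPKM in Riclin and 591 ± 19.2 FPKM in saline (SD, n = 3 each).

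The 20 members below the limit complete the repertoire. Besides Fut9, the highest single values were 0.661 FPKM for Galnt17, 0.651 for St6gal2, 0.446 for B3gnt5, 0.404 for B3galt2, 0.400 for Fut1, 0.376 for Fut10 and 0.366 for St6galnac1. Gcnt4, Galntl6, B3galt1, St6galnac5, B3gnt6 and Fut7 peaked between 0.122 and 0.360 FPKM, and St6galnac3, Galnt13, Galnt9, Galntl5, B3gnt4 and Gcnt7 stayed below 0.1 FPKM. Among them is St6galnac1, which makes the sialyl-Tn antigen, with 0, 1 and 0 reads in Riclin and 14, 0 and 27 reads in saline. Its highest count came from saline replicate 4, the library with the most Alpi, and the part of intestinal tissue in it was not tested. Fut7, which completes sialyl Lewis x on leukocytes, had 0, 3 and 2 reads in Riclin and 14, 12 and 7 reads in saline and was lower in every Riclin library, as was the summed lymphoid list, whose part in these counts was not tested. St6gal2, the brain-type relative of St6gal1, had 178 reads in Riclin replicate 2 and 16 and 76 in the other Riclin libraries, and 1, 42 and 4 in saline. These counts allow no statement on levels beyond the libraries in which they were read.

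Genes around the members were read from 5 lists, in none of which a gene passed the limma adjusted threshold. Of 15 mucin core proteins 9 were tested, 0 higher and 1 lower at an unadjusted p under 0.05, with a median log2 fold change of -0.15. Its sign depended on single libraries: leaving out Riclin replicate 4 gave 0.07, leaving out saline replicate 1 gave 0.08 and leaving out saline replicate 4 gave 0.10, whereas the value was -0.40 without Riclin replicate 3 and -0.25 without saline replicate 2. The lower one was Muc4, a membrane mucin, at 2.76, 3.50 and 1.45 FPKM in Riclin and 5.41, 4.59 and 5.96 FPKM in saline, groups that did not overlap (log2 fold change -0.86, SE 0.217, limma adjusted p = 0.691). Below the limit for testing, where the shares given for all tested genes do not apply, Muc5b and Muc15 were higher in every Riclin library. Muc5b measured 0.73, 0.62 and 0.67 FPKM in Riclin and 0.40, 0.22 and 0.37 FPKM in saline. Muc15 measured 0.69, 0.51 and 0.46 FPKM in Riclin and 0.086, 0.27 and 0.26 FPKM in saline. Mucl3, the highest of the list, measured 1186, 1423 and 742 FPKM in Riclin and 1792, 1130 and 1184 FPKM in saline, with overlap. Muc5ac and Muc6 had log2 fold changes of -0.15 and -0.34, with overlap in each. Muc1, a membrane mucin of the surface epithelium, had a log2 fold change of 0.32 and Emcn, an endothelial sialomucin, one of 0.26 (limma adjusted p = 0.843 each).

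Sugar donors come from enzymes of nucleotide sugar and sialic acid synthesis, of which 22 were tested, 1 higher and 0 lower at an unadjusted p under 0.05, with a median log2 fold change of -0.04. The higher one was Galt, which feeds galactose into UDP-galactose, at 11.7, 9.09 and 12.8 FPKM in Riclin and 7.94, 8.23 and 8.09 FPKM in saline. All its Riclin libraries lay above its saline libraries (log2 fold change 0.41, SE 0.129, limma adjusted p = 0.765). Galk1, the galactokinase one step earlier, had a log2 fold change of 0.13, Gfpt2, of hexosamine synthesis, one of -0.18, and Gmds, which makes the fucose donor and was the highest of the list, one of -0.18.

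Among 10 tested terminal glycosyltransferases outside the set, 1 was higher and 1 lower at that level. B4galnt3, which caps chains with N-acetylgalactosamine, measured 23.2, 32.6 and 24.1 FPKM in Riclin and 15.9, 10.8 and 10.9 FPKM in saline (log2 fold change 1.03, limma adjusted p = 0.346). B3galt5, which makes type 1 chains, measured 3.24, 4.09 and 1.56 FPKM in Riclin and 10.7, 6.41 and 7.60 FPKM in saline (log2 fold change -1.25, limma adjusted p = 0.572). Neither gene's groups overlapped, and both differences were larger than that of any member. A4gnt, which caps the gland mucin and was the highest of the list, had a log2 fold change of 0.02, and St8sia6, a sialyltransferase of another linkage, one of -0.42.

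Of 10 tested sulfotransferases and sulfate-donor enzymes 0 were higher and 0 lower at an unadjusted p under 0.05, 2 lay above 0 and 8 below, and the median log2 fold change was -0.15. Chst3 had a log2 fold change of 0.24, Chst4 of -0.82 (SE 0.455, limma adjusted p = 0.843), Papss1 of -0.18 and Papss2, the highest, of -0.17. Groups did not overlap for Chst3, higher in Riclin, and Slc35b2, lower in Riclin (log2 fold change -0.14, limma adjusted p = 0.861). Of 9 tested sialidases and fucosidases, which remove the terminal sugars, 0 were higher and 0 lower at that level, and 7 lay above 0 with a median of 0.05. Neu3 had a log2 fold change of 0.19, Neu2 of 0.20 and Fuca1, the highest, of 0.12.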

How the data were processed

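Total RNA from mouse stomach was extracted with TRIzol and, per the labels' protocols, made into libraries with a VAHTS Universal V6 kit. Genome build mm10 and Bowtie2 are named, with no role or version, per the submitters' processing notes. How reads were counted, against which annotation and with or without strand was not given in the sources used here. One series-wide table of FPKM values, deposited by the authors, held 23550 symbols in 6 libraries. Groups come from the treatment labels and replicate numbers from the titles. The members and gene lists were chosen with earlier results of these data known.

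The 11738 genes that reached an FPKM of 1 in 3 or more libraries were tested on log2(FPKM + 1) by limma 3.58.1 (R 4.3.3) with a variance trend and no covariate, two-sided, with Benjamini-Hochberg adjustment over all of them at 0.05. Whole reads, within 0.001 reads, were recovered from the FPKM values for 23549 genes and used for depth and for voom. Precision is set by 3 libraries a group. The fit and the read recovery were tested on simulated data. Positions are from GENCODE M21 on GRCm38, in which 19635 symbols and all 65 members were found, and 48 members matched the RefSeq promoter table.

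Named were the 8 members in each direction with the smallest unadjusted p, the highest member of each of 8 enzyme classes, C1galt1 and C1galt1c1, and of each gene list up to 3 genes with the smallest unadjusted p and the highest one. Genes named outside this rule were picked with their values in view. Alternatives were 2 other scalings (upper-quartile, median-of-ratios), 0.1 as the pseudocount, a minimum FPKM of 5 or none, limma's robust prior, a replicate block, leaving out 1 library at a time, acinar genes removed with rescaling, the 2 libraries lowest in acinar transcripts left out, and voom. Plots used matplotlib 3.10.9 (Python 3.11.15).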

Additional observations from a re-analysis of the deposited data

How the results depend on the processing

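Of the members, 0 passed the adjusted threshold in limma or voom under any alternative. Over all genes the count was 2 with a robust variance prior (Clca1 and Gm52608, neither a member) and 0 to 1 with 1 library left out (Cd79b without saline replicate 2). Members with an unadjusted p under 0.05 that were higher in Riclin (2) numbered 0 with the filter at an FPKM of 5, 1 without both libraries low in acinar transcripts and 1 to 3 with 1 library left out. Those lower (1) numbered 2 with no filter, 0 with the filter at 5, 4 with median-of-ratios scaling, upper-quartile scaling, acinar genes removed or both libraries left out, 3 with the replicate block and 0 to 4 with 1 library left out (0 without Riclin replicate 4, 4 without Riclin replicate 3). The filter at 5 left 24 members, and B4galt5, Gcnt2 and St6gal1 were not tested under it. The members behind these counts differed: with the replicate block they were B3gnt3 and St3gal1 (2 higher) and B3gnt7, B4galt4 and Fut8 (3 lower), so that B4galt5, Gcnt2 and St6gal1 were no longer under 0.05, and the same held for those genes without both libraries. These settings are not independent. Replicate numbers 1 and 3 each occur in a single library, so the block takes both of those libraries out of the estimate. Its log2 fold changes equal those without both libraries, and only the p-values differ.

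The median log2 fold change of galactosylation enzymes (0.03) was 0.11 with the filter at 5, with the replicate block and without both libraries, -0.007 with median-of-ratios scaling, -0.012 with acinar genes removed, and -0.023 to 0.13 with 1 library left out. That of α2,6-sialyltransferases (-0.22) was -0.31 with a pseudocount of 0.1, -0.10 with no filter, 0.16 with the filter at 5, where St6galnac2 alone was left, -0.32 with voom and -0.26 to -0.15 with 1 library left out. Leaving out 1 library gave -0.166 to 0.028 for branching enzymes (0.028 without saline replicate 4) and -0.016 to 0.268 for α2,3-sialyltransferases (-0.016 without Riclin replicate 4). Sialidases and fucosidases (0.05) were at 0.01 with median-of-ratios scaling, 0.006 with acinar genes removed, 0.12 with the replicate block and without both libraries, and 0.006 to 0.127 with 1 library left out. With 1 library left out the medians also crossed 0 for mucins (-0.396 to 0.098), sugar supply (-0.097 to 0.019), other terminal enzymes (-0.038 to 0.102), initiation (-0.036 to 0.087), extension (-0.086 to 0.074), core 1 (-0.055 to 0.042) and fucosylation (-0.046 to 0.178), and ran from -0.182 to -0.072 for sulfotransferases. C1galt1 changed sign, to 0.069 with the replicate block and without both libraries, and ran from -0.095 to 0.044 with 1 library left out, and C1galt1c1 ran from -0.069 to 0.07. The replicate block and leaving out both libraries give the same values by design. Apart from that and the filter at 5, the cause of these changes was not tested.

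The groups share the numbers 2 and 4 alone, and deviations from the group means of same-numbered libraries correlated at 0.22 and 0.01 across genes, so the numbers were not taken as pairs. With 3 libraries a group and a median SE of 0.14 (log2), small differences were not detectable.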
